A study of Drosophila melanogaster with 4 samples.

Results

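Cmi (Cara Mitad, CG5591) was mapped on chromatin of Drosophila melanogaster embryos by ChIP-seq, and the binding peaks that lie in small groups of 2, 3 or 4 are described here. The gene table of release 6 gives CG5591 the symbol Lpt. Its protein belongs to the Trithorax-related (Trr) complex, an enzyme complex that methylates lysine 4 of histone H3. The complex is best known for placing the monomethyl mark on enhancers, stretches of regulatory DNA that act on genes from a distance and often lie several to a gene. A factor that acts at enhancers can therefore be found at several sites of 1 neighbourhood, and the spacing and relative strength of such sites can be read from a list of peaks.

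The members were chosen by position alone. Peak midpoints were sorted along each of the 6 sequences 2L, 2R, 3L, 3R, 4 and X, and neighbours at most 5 kb apart were chained. All peaks in chains of exactly 2 (pairs), 3 (triplets) or 4 (quartets) were taken, which gave 1222 of the 3110 peaks of the list, or 1222 of the 2679 on these sequences (45.6%, 95% Wilson interval 43.7 to 47.5). They formed 324 pairs with 648 peaks, 110 triplets with 330 and 61 quartets with 244. The other peaks of the 6 sequences were 967 single peaks and 490 peaks in groups of 5 or more.

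The labels describe 2 libraries of DNA precipitated with an affinity-purified rabbit polyclonal antibody raised against full-length Cmi, and 2 libraries of input DNA. All 4 came from the strain Exd-GFP-13T at the stage Embryo 0-8, with w; PBac{y[+]-attP-3B}VK00033 as the genotype and embryos of unknown sex. By the strain field, the ChIP and the input share a GFP-tagged transgene of the Hox cofactor extradenticle (exd). That transgene is made from the genomic region of exd, with GFP in place of its stop codon. The genotype field as quoted does not name it. The extraction protocol in the same labels names a later egg collection and another stock, and the stage and strain fields were followed here. The deposited data are 1 list of peaks on FlyBase release 5 with a start, an end and a score for each peak and no value per library. Library depth is therefore unknown, and the spread between replicates was not analysed here. In whole embryos, a lower score from fewer bound cells and one from less binding per cell cannot be told apart.

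The score has no named scale in the file. Of 84 scores that each recur in 5 or more peaks, 79 fell within 0.01 of the −log10 tail probabilities of whole read heights over a Poisson background of 31.13 reads, against at most 14 for any background more than 1 read away. On that reading the median score of the 6 sequences, 13.99, corresponds to 83 reads or 2.67 times the background, and the upper quartile, 22.455, to about 101 reads or 3.24 times. Peaks above the upper quartile are called strong below, peaks at or below the median weak, and those between them middle. Position, score and width come from the same peak calls that chose the members, so the values below are descriptions without a test. The Wilson and order-statistic intervals (95%) cover counting error only and treat peaks as independent. Peaks are named by position on release 5, as no gene was assigned to them here.

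The groups were short, which the choice of members partly sets. Midpoints of neighbours in a group were at most 5 kb apart by the rule, and larger groups were left out, so the span is capped. The midpoint of any other peak lies more than 5 kb from that of the nearest member, also by the rule. The spans, the filled shares and the distances to other peaks below are therefore descriptions of groups chosen in this way. A pair spanned a median of 1989 bp from its first to its last edge (interval 1778 to 2270), a triplet 4052 bp (3524 to 4495) and a quartet 5612 bp (4546 to 6450), with a range over all groups from 529 to 13310 bp. Peaks filled a median of 59.4% of the span of a pair, 52.6% of a triplet and 47.1% of a quartet. Together the members covered 779 kb of the 1596 kb that their groups spanned. Beyond its own members, a group lay a median of 17.7 kb from the nearest other peak (14.8 to 20.8), and 155 of the 495 groups (31.3%) had another peak within 10 kb. The distance was 20.7 kb for pairs, 14.4 kb for triplets and 12.6 kb for quartets, with overlapping intervals (15.9 to 23.3, 11.4 to 20.7 and 9.7 to 18.7 kb).

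The gaps between the edges of adjacent members were of the same order as the widths of the peaks. There were 727 adjacencies, each formed by 2 peaks next to each other in 1 group, and their median gap was 605 bp (515 to 707), with quartiles of 207.5 and 1770 bp. The median member was 466.5 bp wide. Of the 727 gaps, 212 (29.2%) were under 250 bp, 332 (45.7%) under 500 bp and 440 (60.5%) under 1 kb. The gaps thinned out with distance, from 332 below 500 bp to 108 between 500 bp and 1 kb, 76 in the next 500 bp and 57 in the 500 bp below 2 kb. Among the shortest gaps, 91 lay between 50 and 99 bp and 44 between 100 and 149 bp. No gap on the 6 sequences was shorter than 50 bp and no peaks overlapped, so closer peaks, if there were any, are not separate in the list. The median gap depends on the chaining distance, and was 342.5 bp at 2 kb and 982.5 bp at 10 kb.

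**Figure D1:**
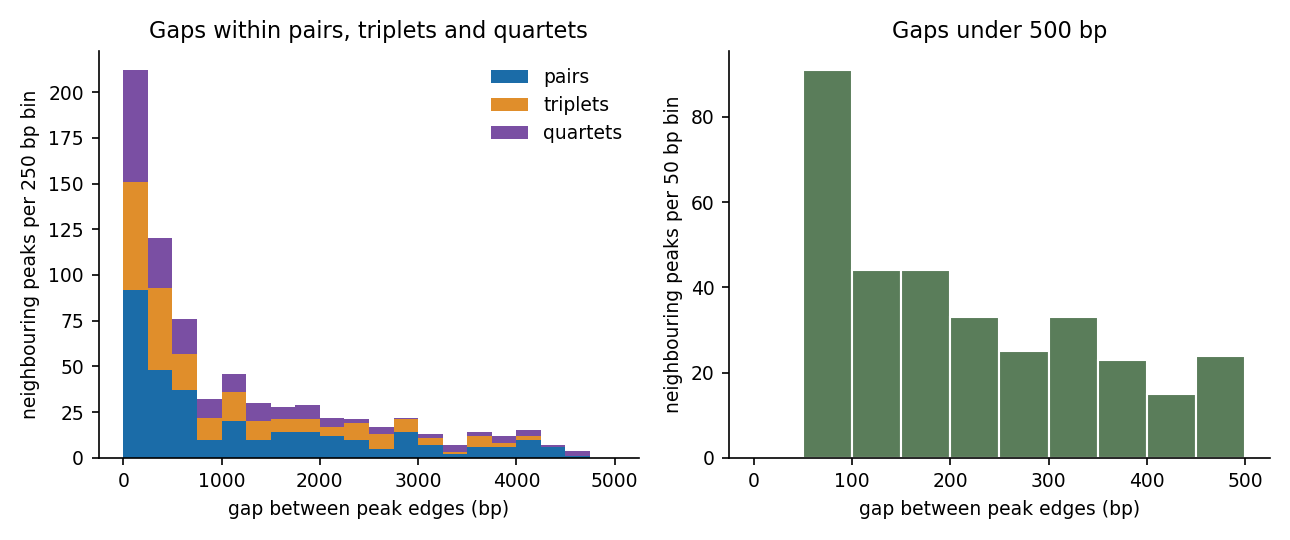
Gap between the facing edges of adjacent peaks in pairs, triplets and quartets, in bins of 250 bp (left, stacked by group size) and in bins of 50 bp for gaps under 500 bp (right). The first 250 bp hold 212 of the 727 gaps, the bin from 50 to 99 bp holds 91, and none is shorter than 50 bp.

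The gap was similar in the 3 group sizes, with medians of 676.5 bp in pairs (524 to 848, n = 324), 582.5 bp in triplets (439 to 767, n = 220) and 524 bp in quartets (377 to 736, n = 183), whose intervals overlap. In groups of 5 or more it was 631 bp (535 to 752, n = 420). Within a triplet the 2 gaps were sorted into wider and narrower, which sets them apart by construction. The wider gap had a median of 1345 bp and the narrower 277 bp, beside quartiles of 207.5 and 1770 bp over all gaps. The wider was at least 4 times the narrower in 49 of 110 triplets (44.5%, 35.6 to 53.9). In quartets, sorted in the same way, the widest gap had a median of 1779 bp and the narrowest 148 bp. The widest was the middle gap in 17 of 61 quartets (27.9%, 18.2 to 40.2), where the middle is 1 of the 3 gaps. In most quartets the members thus did not fall into 2 pairs parted by the widest gap. All gaps were under 1 kb in 187 of the 324 pairs (57.7%), 41 of the 110 triplets (37.3%) and 17 of the 61 quartets (27.9%). These 245 groups, 49.5% of the 495, would each be 1 region if peaks with edges less than 1 kb apart were read as 1. When all peaks of the list with edges within 1 kb were joined first, 635 regions were left in chains of 2 to 4, with a median gap of 2019 bp.

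Members of pairs to quartets had about the scores of other peaks. Their median score was 13.99 (13.56 to 14.85), against 13.99 for single peaks (13.51 to 14.42) and 14.86 for groups of 5 or more (13.99 to 15.49). Strong peaks made up 312 of the 1222 members (25.5%, 23.2 to 28.1), 220 of the 967 single peaks (22.8%, 20.2 to 25.5) and 138 of the 490 peaks in larger groups (28.2%, 24.4 to 32.3). The median width of the members was 466.5 bp (443 to 489), against 413 bp for single peaks (394 to 438) and 475 bp in larger groups (440 to 516). Of the members, 189 were wider than 1 kb (15.5%, 13.5 to 17.6), while 98 single peaks (10.1%, 8.39 to 12.2) and 94 peaks of larger groups (19.2%, 15.9 to 22.9) were. Triplets had the highest values of the 3 sizes, with 97 of 330 peaks strong (29.4%) and 68 wider than 1 kb (20.6%), against 23.9% and 13.1% in pairs and 24.6% and 14.8% in quartets. The member scores ran from 6.46 to 209.52 and the widths from 201 to 5398 bp, and 34 members had the smallest width of the list, 201 bp.

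Adjacent members were about as alike in score as consecutive peaks that were not linked. The higher score was a median of 1.59 times the lower (1.52 to 1.64, quartiles 1.23 and 2.40, n = 727). It was less than 1.5 times the lower in 332 adjacencies (45.7%), at least 2 times in 253 (34.8%), at least 4 times in 57 (7.84%) and at least 10 times in 2. Both partners lay on the same side of the median score in 384 of 727 adjacencies (52.8%, 49.2 to 56.4). Of all members, 50.2% lay at or below that median. Consecutive peaks that were not linked, over 5 and up to 20 kb apart, gave much the same values, a median ratio of 1.69 (1.60 to 1.78, n = 488) and 250 on the same side (51.2%, 46.8 to 55.6). Spearman's rho between the left and the right score was 0.10 in the groups and 0.04 between unlinked peaks. All these peaks share 1 list, and in triplets and quartets an inner peak enters 2 adjacencies. The unlinked neighbours were not restricted to peaks outside the groups, and members at the end of a group also enter them. Scores and widths of some members thus stand on both sides of this comparison and of the later ones with unlinked neighbours. The sets compared are therefore not independent. In the plot of left against right scores both clouds spread far past the lines that mark a ratio of 2.

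**Figure D2:**
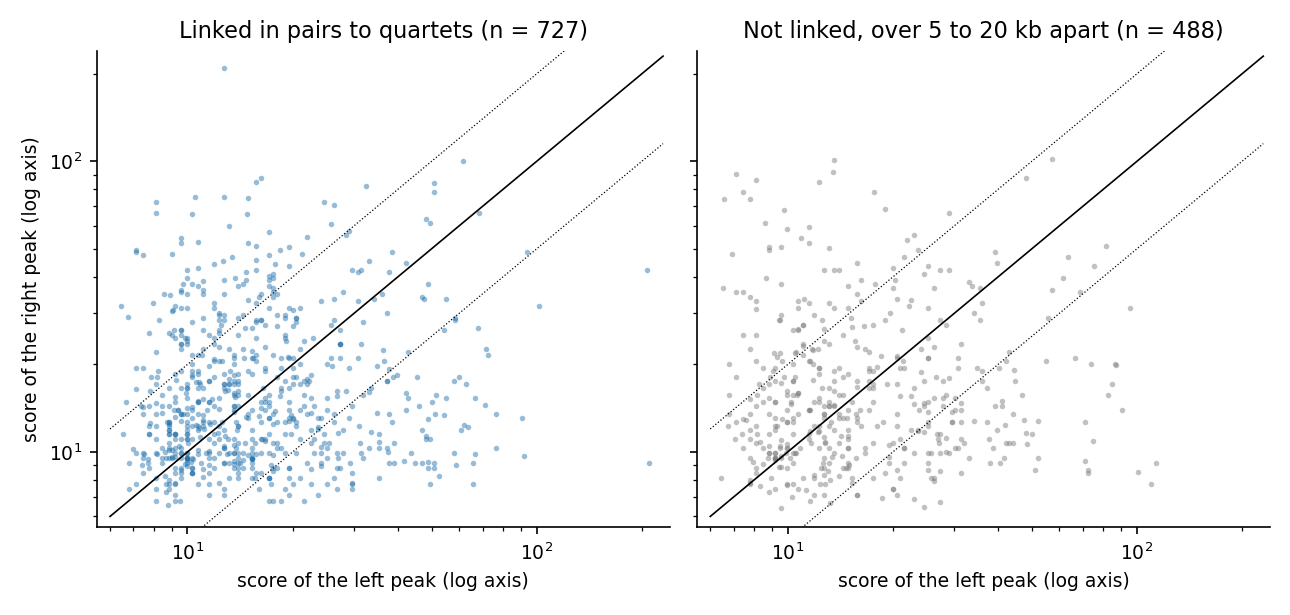
Score of the left peak against that of the right peak (log axes) for the 727 adjacencies within pairs to quartets (left) and the 488 consecutive peaks over 5 and up to 20 kb apart (right). Members at the end of a group can also enter the right panel. The solid line marks equal scores and the dotted lines a ratio of 2. On or outside the dotted lines lie 253 of the linked and 180 of the unlinked adjacencies.

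Widths of partners were also about as alike as those of unlinked neighbours. The larger width was a median of 1.78 times the smaller (1.68 to 1.87), with 276 adjacencies (37.96%) under 1.5 times, 308 (42.4%) at 2 times or more and 7 at 10 times or more. Spearman's rho of the widths was 0.08, against −0.01 between unlinked peaks, whose median width ratio was 1.85 (1.74 to 1.97). Sorted within each adjacency, the wider peak had a median of 677 bp (634 to 727) and the narrower one 318 bp (303 to 334). The higher score had a median of 19.8 (18.6 to 21.0) and the lower one 10.8 (10.5 to 11.1). Such sorting sets the medians apart by construction, on both sides of the 448 bp and 13.99 of all peaks of the 6 sequences. The higher-scoring partner was the wider one in 571 of 720 adjacencies without a tie (79.3%, 76.2 to 82.1), against 377 of 485 between unlinked peaks (77.7%, 73.8 to 81.2). Over all members Spearman's rho of score and width was 0.77. Both values come from the same peak call, and what part the calling has in the relation was not tested.

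Over the 3 group sizes together, strong members stood beside strong and weak ones in about the shares that these classes make up. Weak neighbours were fewer than the share of their class in triplets and more in quartets, where the interval includes that share. Of the 727 adjacencies, 48 joined 2 strong peaks (6.60%), 98 a strong and a middle peak (13.5%), 169 a strong and a weak peak (23.2%, 20.3 to 26.5) and 194 joined 2 weak peaks (26.7%). Counted from each member to its neighbours, a strong peak had a weak neighbour in 169 of 363 cases (46.6%, 41.5 to 51.7), a middle peak in 174 of 360 (48.3%, 43.2 to 53.5) and a weak peak in 388 of 731 (53.1%, 49.5 to 56.7). Weak peaks were 50.2% of all members. A strong peak had a strong neighbour in 96 of 363 cases (26.4%, 22.2 to 31.2), close to the 25.5% that strong peaks make up, where an adjacency of 2 strong peaks is counted from each side. By group size, the neighbour of a strong peak was weak in 47.7% of 155 cases in pairs (40.03 to 55.6), 36.7% of 128 in triplets (28.9 to 45.3) and 60.0% of 80 in quartets (49.05 to 70.04). Weak peaks made up 50.2% of the peaks of pairs, 47.9% of those of triplets and 53.7% of those of quartets. The neighbour was also strong in 21.9% of these cases in pairs (16.1 to 29.1), 34.4% in triplets (26.7 to 43.0) and 22.5% in quartets (14.7 to 32.8), beside shares of strong peaks of 23.9%, 29.4% and 24.6%. The intervals of triplets and quartets for a weak neighbour do not overlap, but that of quartets includes their own weak share of 53.7%. The 128 and 80 cases come from 97 and 60 strong peaks, and an inner peak enters 2 adjacencies. These cases are thus not independent and the intervals can be too narrow. The difference was not tested. Unlinked neighbours gave 125 weak ones beside 261 strong peaks (47.9%, 41.9 to 53.9) and 68 strong ones (26.1%, 21.1 to 31.7). The share of weak neighbours rests on the definition of weak, and was 25.3% beside strong members when weak meant the lower quartile, where 27.5% of all members were weak. It was 27.7% when peaks of the lower quartile were left out before chaining, where 30.2% of the 872 members were weak.

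**Figure D3:**
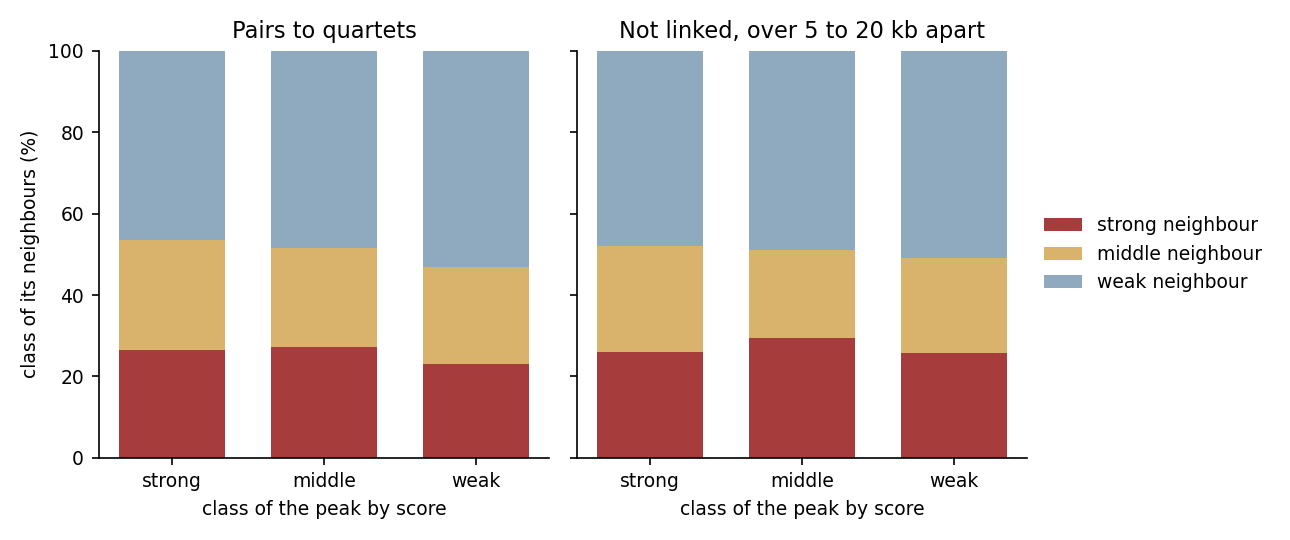
Class of the neighbours (percent, stacked) of strong, middle and weak peaks, for adjacent members of pairs to quartets (left) and for unlinked neighbours over 5 and up to 20 kb apart (right). Unlinked neighbours can include members at the end of a group. Strong is a score above 22.455 and weak one of at most 13.99. A weak neighbour stands beside 46.6% of strong, 48.3% of middle and 53.1% of weak members.

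Most groups held at most 1 strong peak, where strong peaks made up 23.9% of the peaks in pairs, 29.4% in triplets and 24.6% in quartets. Whether the counts depart from what these shares give was not tested. No strong peak was present in 247 of the 495 groups (49.9%), 1 in 189 (38.2%), 2 in 54 (10.9%), 3 in 5, and no quartet held 4, where a count of 0 of 61 allows a share of up to 4.92% (3 counts of 61), or 5.92% by the upper Wilson limit. Of the 248 groups with a strong peak, 189 (76.2%, 70.5 to 81.1) had it as their only one. The groups with a strong peak were 138 of 324 pairs (42.6%), 69 of 110 triplets (62.7%) and 41 of 61 quartets (67.2%), where a larger group holds more peaks that can be strong. All peaks were weak in 86 pairs (26.5%), 14 triplets (12.7%) and 6 quartets (9.84%). Weak peaks made up 50.2%, 47.9% and 53.7% of the peaks of these sizes, and a larger group needs more weak peaks to be all weak. In the 315 adjacencies with at least 1 strong peak, the higher peak, strong by this choice, had a median score of 34.8 (32.5 to 37.3) and a width of 1006 bp (926 to 1109). The lower had a median score of 13.5 (12.7 to 14.6) and a width of 424 bp (380 to 469), near the medians of all peaks of the 6 sequences (13.99 and 448 bp). The highest score of a group was a median of 1.57 times its second in pairs (1.48 to 1.68), 1.53 times in triplets (1.37 to 1.75) and 1.48 times in quartets (1.29 to 1.91), and at least 2 times in 114, 37 and 22 of them.

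The likeness of partners showed no order with the distance between them. The median score ratio was 1.53 at gaps under 250 bp (1.44 to 1.66, n = 212), 1.64 from 250 bp to under 500 bp (1.52 to 1.92, n = 120), 1.45 from 500 bp to under 1 kb (1.34 to 1.68, n = 108), 1.73 from 1 kb to under 2 kb (1.49 to 2.08, n = 133) and 1.58 from 2 kb (1.40 to 1.73, n = 154). The shares on the same side of the median ran without order from 47.4% (1 to under 2 kb) to 58.4% (from 2 kb). Over all adjacencies Spearman's rho of gap and score ratio was −0.01. The narrower partner had a median width between 297 and 332.5 bp in every gap class, and the wider one between 619.5 and 795 bp. A strong peak had a weak neighbour in 47 of 93 cases (50.5%, 40.6 to 60.5) at gaps under 250 bp and in 32 of 82 (39.0%, 29.2 to 49.8) from 2 kb, with overlapping intervals.

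The top peak stood at every place of a group, where left and right are only the order of the coordinates. Among 109 triplets without a tied top score, it was the left peak in 30 (27.5%, 20.0 to 36.6), the middle one in 39 (35.8%, 27.4 to 45.1) and the right one in 40 (36.7%, 28.2 to 46.1). The scores of the triplets stepped up or down from end to end in 45 of 110, while the middle was highest in 39 and lowest in 25, and 1 was tied. The outer peaks of a triplet differed by a median of 1.87 times (1.58 to 2.08). In quartets the top peak stood at the left end in 16 of 61 (26.2%, 16.8 to 38.4), at the second place in 10, at the third place in 11 and at the right end in 24 (39.3%, 28.1 to 51.9). An inner place thus held 21 of 61 (34.4%, 23.7 to 47.0) where inner places are 2 of the 4, while by width the inner peaks led in 30 of 61 (49.2%, 37.1 to 61.4). The intervals of the left and right ends by score overlap, and by width the right end led in 20 of 61 (32.8%, 22.3 to 45.3). Between adjacent peaks without a tie, the left one scored higher in 164 of 322 cases in pairs (50.9%, 45.5 to 56.3), 94 of 218 in triplets (43.1%, 36.7 to 49.8) and 93 of 182 in quartets (51.1%, 43.9 to 58.3). Over all 722 it was the left one in 351 (48.6%, 44.99 to 52.3). The score leader was also the widest peak in 256 of 321 pairs (79.8%), 81 of 109 triplets (74.3%) and 36 of 61 quartets (59.0%). The widest is 1 of 2, 1 of 3 and 1 of 4 peaks in these sizes, so the shares are not on 1 scale. Spearman's rho of score and width was 0.75 over the peaks of pairs, 0.81 in triplets and 0.79 in quartets.

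**Figure D4:**
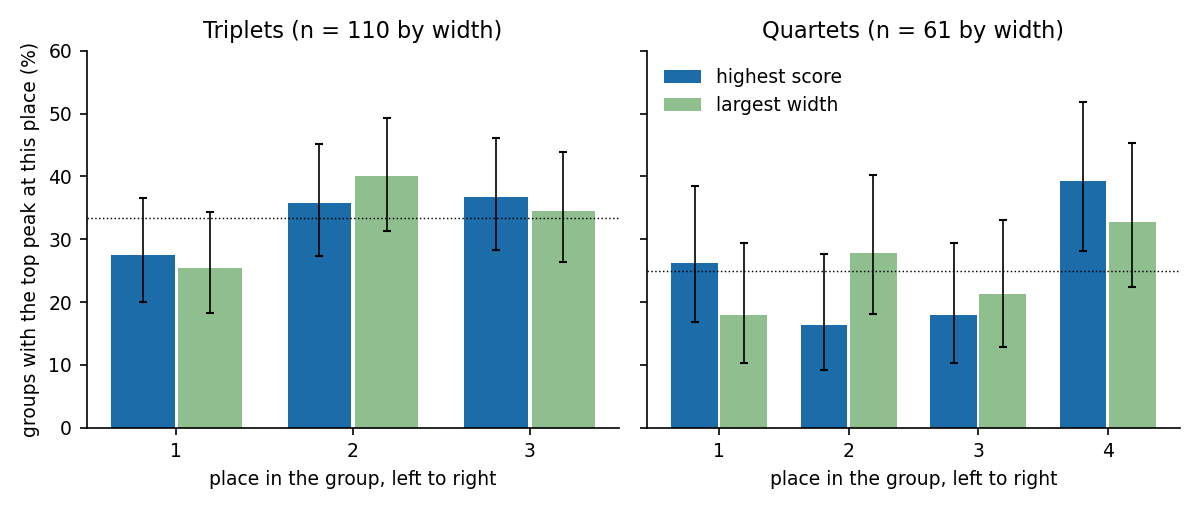
Share of triplets (left) and quartets (right) whose highest-scoring or widest peak stands at each place, left to right along the sequence, with 95% Wilson intervals. The dotted line marks an equal share for each place. In triplets the intervals of all 3 places include it for both rankings. In quartets all intervals include it except that of the right end by score (39.3%, 28.1 to 51.9). By width the right end holds 32.8% (22.3 to 45.3).

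Pairs to quartets occurred on all 6 sequences. They took in 217 of 429 peaks on 2L (50.6%, 45.9 to 55.3), 344 of 685 on 3R (50.2%, 46.5 to 54.0), 9 of 18 on 4, 272 of 612 on 2R (44.4%, 40.6 to 48.4), 224 of 540 on 3L (41.5%, 37.4 to 45.7) and 156 of 395 on X (39.5%, 34.8 to 44.4). Of the 61 quartets, 24 were on 3R, 11 on 3L, 10 each on 2L and 2R, 6 on X and 0 on 4. Median gaps on the 5 larger sequences lay between 522.5 bp (3L) and 707 bp (2R), with overlapping intervals. The members on X had a median width of 399 bp (327 to 457) and those on 2L, 2R, 3L and 3R of 474 bp (453 to 505), and 20.5% (14.9 to 27.5) of the X members and 26.3% (23.7 to 29.0) of the autosomal members were strong. The median score ratio of partners was 1.53 on X (1.40 to 1.69, n = 91) and 1.61 on these autosomal sequences (1.502 to 1.66, n = 631).

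Scores on the series of the common background belonged to 921 of the 1222 members (75.4%, 72.9 to 77.7), 707 of 967 single peaks (73.1%, 70.2 to 75.8) and 378 of 490 peaks of larger groups (77.1%, 73.2 to 80.6), matched within 0.01. X stood apart, with 150 of its 156 members on the series (96.2%, 91.9 to 98.2), against shares between 69.8% (3R) and 76.3% (3L) on 2L, 2R, 3L and 3R. Members on the series had a median height of 2.73 times the background (quartiles 2.41 and 3.34), the strong ones 3.85 times and the weak ones 2.38 times. The height is read from the score that also defines these classes, so their order is set by construction. The share was 78.5% in pairs (75.2 to 81.5), 74.5% in triplets (69.6 to 78.9) and 68.0% in quartets (61.9 to 73.6). With a tolerance of 0.005 the share of members on the series was 46.4%. Since nearly all X members were on the series, neighbours were compared on the other sequences. There, the neighbour of a member on the series was also on it in 77.2% of 909 cases (74.4 to 79.8), and the neighbour of a member off it in 57.0% of 363 (51.9 to 62.0). Unlinked neighbours showed 71.5% of 582 (67.7 to 74.996) and 61.5% of 270 (55.6 to 67.1).

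The pair with the highest score lay on 2L from 2749308 to 2755574. Its left peak, 5398 bp wide with a score of 207.12, ended 50 bp before a right peak of 819 bp with a score of 42.26, and the peaks filled 99.2% of the span. The second pair, on 2L from 160480 to 166980, was of another kind, with peaks of 1849 and 1560 bp (scores 93.79 and 48.57) held 3092 bp apart. On X from 2015945 to 2018575, a peak of 2282 bp with a score of 90.53 stood 96 bp from one of 253 bp with a score of 13.13. On 3L from 128537 to 132593, a peak of 532 bp (16.21) preceded one of 1759 bp (87.3) by 1766 bp. The pair on 3R from 2795896 to 2799366 had the narrower peak as the higher one, with 1144 bp and a score of 84.1, while the lower (50.9) measured 2097 bp. A further X pair, from 2028763 to 2032536, joined peaks of 1305 and 2280 bp (32.45 and 82.52) across 189 bp. Of these 6 pairs, 3 thus had a gap under 200 bp and 2 a gap over 1 kb.

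The triplet with the highest score, on 3R from 10539597 to 10543391, stepped down from left to right with scores of 101.26, 31.82 and 15.75 and widths of 1414, 898 and 755 bp. The next, on 3R from 7599166 to 7606812, stepped up with 49.49, 61.35 and 100.42, and its 3 strong peaks, the last 4054 bp wide, filled 88.0% of 7647 bp. On 2R from 8866663 to 8873493, scores of 8.47 and 15.75 preceded one of 84.9 after a gap of 3029 bp. On 3R from 2249499 to 2254117 the scores were 67.94, 26.78 and 8.83. In all 4 triplets the top peak stood at an end.

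The highest score of all members, 209.52, belonged to the third peak of a quartet on 3R from 25539948 to 25546397. Its neighbours scored 18.04, 12.71 and 9.19 and were 721, 423 and 350 bp wide beside its 2511 bp, which made this the group with the largest ratio of highest to lowest score among those named here (22.8). The quartet on 2R from 13688445 to 13694748 had scores of 92.15, 9.69, 37.86 and 19.29, in which strong and weaker peaks took turns. Quartets on 3R from 1037674 to 1043301 (76.28, 10.31, 19.03 and 9.88) and from 17010159 to 17014745 (76.28, 13.56, 21.00 and 22.53) each led with their strongest peak at the left end. These 4 quartets had lowest scores between 9.19 and 13.56, all weak.

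**Figure D5:**
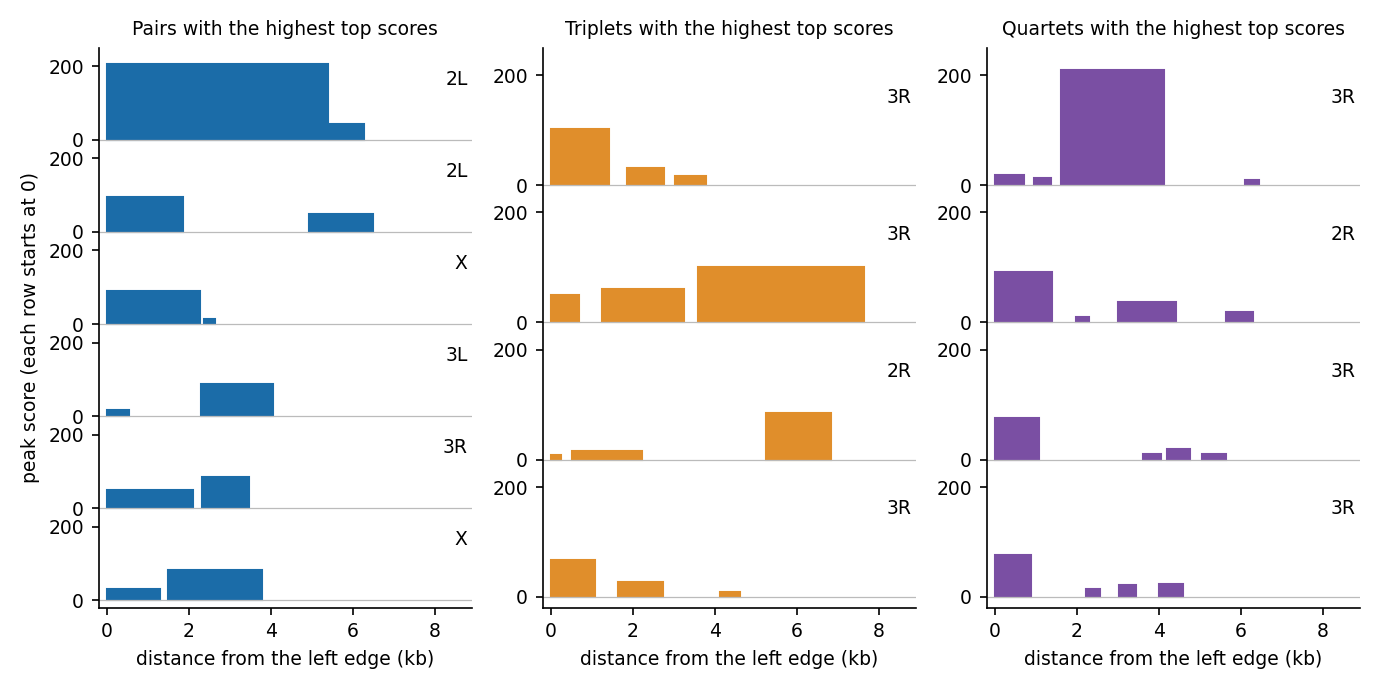
The 6 pairs, 4 triplets and 4 quartets with the highest top scores, each drawn as boxes whose width is the peak's width in kb from the left edge of the group and whose height is its score, with the sequence at the right. Each row starts at 0. The boxes of the pair on 2L in the top row nearly touch, 50 bp apart, while those of the pair in the second row stand 3092 bp apart.

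Among the 138 pairs with a strong top peak, the most unequal lay on 2L from 6078615 to 6081443, where a peak of 816 bp with a score of 65.72 stood 1801 bp from one of 212 bp with 7.78, a ratio of 8.45. Next came a pair on 3R from 19607131 to 19609164 (10.49 and 75.51, gap 358 bp) and a pair on 2R from 9109710 to 9113351 (7.11 and 49.49, gap 354 bp), whose widths of 214 and 3074 bp differed 14.4-fold, the largest width ratio of any pair. The X pair with 90.53 and 13.13 was the fourth, at 6.89. The most equal lay on 3R from 2948274 to 2950278, with scores of 27.3 and 26.24 (ratio 1.04), widths of 847 and 1088 bp and a gap of 70 bp. The other equal pairs were on 2R from 12037949 to 12043794 (30.71 and 33.04, gap 3088 bp), on 2R from 6095170 to 6099226 (22.85 and 24.62, gap 1988 bp) and on 3R from 11745505 to 11746997 (26.24 and 28.44, gap 558 bp). Both the unequal and the equal pairs thus included gaps under 100 bp and gaps over 1 kb.

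Some groups were nearly continuous. After the 2L pair, the most filled pairs were on 3R from 25597200 to 25600745 (97.6%, scores 19.52 and 50.84, gap 84 bp) and on 3L from 4252099 to 4254319 (97.5%, scores 52.49 and 8.26, gap 56 bp). The most filled triplet, on 2R from 19865440 to 19869934 (94.5%), had a peak of 3126 bp with a score of 63.72 followed by peaks of 495 and 627 bp with 12.2 and 11.59. A triplet on 2L from 2161357 to 2165524 (93.5%) had scores of 13.13, 17.79 and 44.2 and a gap of 50 bp, 1 of 3 adjacencies at this smallest gap. On 3R from 8473133 to 8475620 (92.9%) the scores were 39.1, 10.7 and 11.89. The most filled quartets lay on 2L from 2196606 to 2203448 (90.2%, scores 54.27, 13.42, 46.82 and 34.22), on 2L from 219860 to 224969 (89.8%, 15.3, 21.00, 8.11 and 66.45) and on 3L from 19034954 to 19037970 (82.5%, 9.94, 15.36, 21.00 and 11.09). The largest gap, 4669 bp, lay in a loose quartet on 3R from 14740251 to 14749827 whose peaks filled 14.3% of it.

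Some distances lay close to the limit of 5 kb on both sides. The linked neighbours nearest to 5000 bp had midpoints 4991, 4943.5 and 4941.5 bp apart, with scores of 17.35 and 7.78 (3L), 7.78 and 12.3 (3R) and 12.48 and 27.32 (3R). The nearest beyond it were 5007, 5096.5 and 5100 bp apart, with scores of 37.25 and 12.72 (3R), 17.6 and 19.03 (3L) and 10.84 and 10.32 (3L). Of member adjacencies, 36 lay in the 500 bp below the distance, and 27 unlinked neighbours in the 500 bp above it.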

How the data were processed

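ChIP-seq of anti-Cmi precipitates and input is represented by 1 deposited peak list. The submitters' processing notes name BWA, MACS2 and CASAVA (1.7.0.2, 1.7.0.3) and the build BDGP5, and the file header places the peaks on FlyBase release 5. The thresholds, the versions of MACS2 and BWA and any pooling of replicates are not given in the sources used. The score of each peak is the authors' deposited value, used only within this list. Only called peaks are in the list, so partners too weak to be called are not seen. Coordinates are 1-based, as the authors deposited them.

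Chaining, gaps and ratios were computed with Python 3.11.15, numpy 2.4.6, pandas 2.3.3 and scipy 1.17.1. The chaining, the gaps and the interval of the median were tested on simulated data with independent values. The Wilson intervals were not tested in this way. Medians carry order-statistic intervals and shares Wilson intervals. The members and lists were chosen with earlier results of these data known. Regions named are those with the highest top score, the most equal and unequal pairs, the most filled groups, the extreme gaps and the neighbours at the chaining distance. Distances to gene starts and sequences were not analysed here, since the reference at hand was of another release. The gene table of release 6 gave only the symbol of CG5591.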

Additional observations from a re-analysis of the deposited data

Results flagged for a closer look

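Unplaced sequence lay outside the comparisons above and drew attention because the same chaining finds small groups there. On Uextra, which collects unplaced sequence of release 5, 81 of 417 peaks (19.4%, 95% Wilson interval 15.9 to 23.5) fell in 30 chains of 2, 3 or 4. Their median score was 38.7 and their median width 349 bp, the median gap was 1979 bp (1407 to 2383, n = 51 adjacencies), and the median score ratio of neighbours was 1.30 (1.195 to 1.502). Neighbouring places on Uextra need not be neighbours in the genome.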

How the results depend on the processing

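Of 44 alternatives, 29 stayed within the interval of the reported value, or within 1.5 times a count, and 15 did not. Among the 29, taking the median of the members for the same-side share could not change it. That median and the median of the 6 sequences are both 13.99. Joining peaks with edges within 1 kb left 635 member regions, a median gap of 2019 bp, a score ratio of 1.75, a width ratio of 2.17 and 40.4% weak neighbours of strong members. A chaining distance of 2 kb gave a median gap of 342.5 bp and 52.5% weak neighbours, and one of 10 kb a median gap of 982.5 bp, as the limit on the gap sets it. Chaining only peaks above the lower quartile of the score gave a gap of 734.5 bp, 57.6% of partners on the same side of the median and 27.7% weak neighbours, where part of the weak class was left out. With weak taken as at or below the lower quartile the share was 25.3%. Ranking by width put the leader at an inner place in 49.2% of quartets. Tolerances of 0.005 and 0.015 for the score series, chosen after seeing the data, gave 46.4% and 78.4% of members on it. The share in which the higher-scoring partner was wider stayed between 76.6% and 79.7%. No paired analysis was possible because 1 peak list stands for all libraries, which also prevents leaving a replicate out. The planned distance to gene starts was not run.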
